A study of Mus musculus with 12 samples.

Results

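The genes described here are 7 genes that mark regulatory T cells, namely Foxp3, Il2ra, Ctla4, Ikzf2, Tnfrsf4, Tnfrsf18 and Ccr8, and 3 genes of the Ccl22-Ccr4 chemokine axis, namely Ccl22, Ccl17 and Ccr4. They were taken by gene name, and all 10 are listed in every table, among 55878 genes in tumor tables and 56061 in culture tables. The set was selected on TPM values of these tumors, namely the level per library and the knockdown change. The study sequenced RNA from HM1, which is a line of murine ovarian cancer cells, in 12 libraries that form 4 groups of 3: tumors of St3gal3 knockdown cells, tumors of control hairpin cells, cultured knockdown cells and cultured control cells. Knockdown cells carry a short hairpin RNA against St3gal3, which encodes a sialyltransferase, and control cells, whose genotype is labelled wild type, carry a control hairpin. The labels give no host strain, age, time of growth or number of hairpins, nor whether samples of 1 group are separate animals or cultures, so the p-values given here rest on a spread between samples that could be technical only.

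Regulatory T cells are CD4 T cells that restrain other immune cells, and the transcription factor Foxp3 defines them. They carry the interleukin-2 receptor alpha chain (Il2ra), the inhibitory receptor Ctla4 and the costimulatory receptors OX40 (Tnfrsf4) and GITR (Tnfrsf18), and in tumors often the chemokine receptor Ccr8. The chemokines Ccl22 and Ccl17, made mostly by dendritic cells and macrophages, bind the receptor Ccr4 and can draw such T cells into a tumor.

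In short, both chemokine genes had lower mean levels in knockdown tumors than in control tumors, while Foxp3 overlapped closely and 5 of the other 6 regulatory T cell genes had higher means. Ccl22 averaged 10.6 ± 2.44 TPM (a transcript level scaled by gene length and library total) in knockdown tumors and 23.9 ± 1.68 TPM in control tumors (SD, n = 3 each). Foxp3 averaged 1.46 ± 0.306 TPM in knockdown tumors and 1.37 ± 0.393 TPM in control tumors. Il2ra and Ctla4 were higher in every knockdown tumor than in any control tumor. Ccr4 was near 0 in tumors of both kinds. Because the genes were chosen by values of the tumor comparison itself, their differences are given as a description, with no p-value, and support nothing on their own. In bulk tumors, fewer cells of a type and less RNA per cell cannot be told apart.

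The hairpin's target was checked first. St3gal3 was at 7.28, 5.87 and 5.76 TPM in knockdown tumors 1, 2 and 3, against 14.0, 15.39 and 15.36 TPM in control tumors 1, 2 and 3. In culture it was at 1.52, 1.25 and 1.83 TPM in knockdown libraries, against 9.59, 12.52 and 12.93 TPM in control libraries. Its level thus matched the labels in all 12 libraries.

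Markers of other cell types also stood at different levels in the tumors. Ptprc, the pan-leukocyte gene for CD45, was at 27.86, 23.74 and 32.03 TPM in knockdown tumors, against 17.25, 19.32 and 20.59 TPM in control tumors. The 8 epithelial tumor cell markers summed to 2562 to 2829 TPM in knockdown tumors and 3230 to 3436 TPM in control tumors. The 12 skeletal muscle markers summed to 109.4, 16.55 and 83.84 TPM in knockdown tumors, against 3.46, 17.1 and 4.69 TPM in control tumors. Knockdown tumor 2, whose muscle sum lay within the control range, had the lowest Ccl22 and Ccl17 of all 6 tumors. The 8 lymph node and B cell markers summed to 28.0 to 59.8 TPM in knockdown tumors and 0.65 to 27.61 TPM in control tumors. Most of the knockdown sums was Ccl21a, a chemokine of lymphatic tissue, while the B cell gene Ms4a1 did not exceed 0.11 TPM in any tumor. The part of these differences in the results below was not tested.

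**Figure D1:**
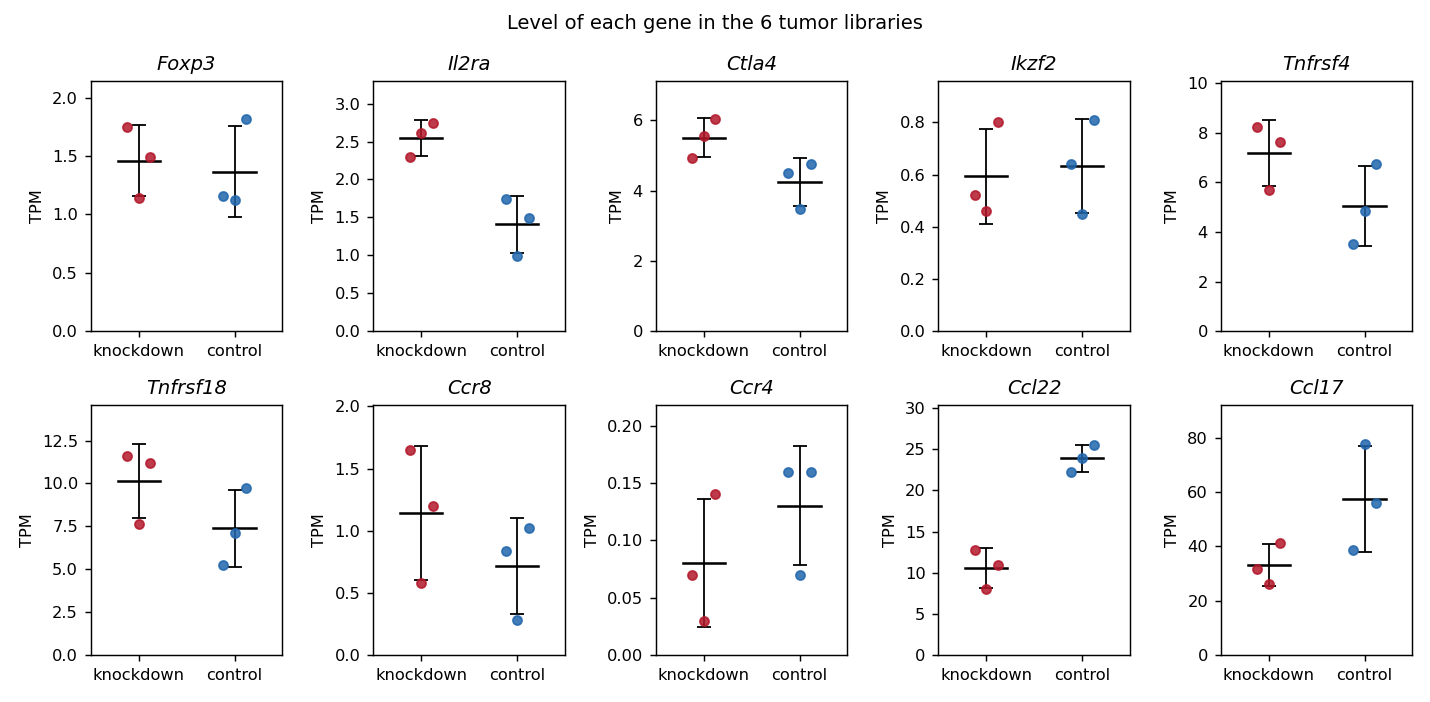
Level of each of the 10 genes in TPM (vertical axes, from 0) in the 3 knockdown and 3 control tumors. Points are libraries, the horizontal line is the mean and bars are 1 SD. The groups are apart for Ccl22, Il2ra and Ctla4 and overlap for the other 7 genes.

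Ccl22 and Ccl17 come first, as the ligands. Their genes lie near each other on chromosome 8, with the protein-coding chemokine gene Cx3cl1 between them in RefSeq's order of genes. Because these are the ligands whose levels were lower in the same tumors, the 250 bases before each start site are shown, from RefSeq on build GRCm38.p6, plus strand, at chr8:94745434-94745683 for Ccl22 and chr8:94810203-94810452 for Ccl17. This is not the build named for the deposited tables, GRCm39, so the coordinates belong to the sequences alone. Capitals mark a match to the STAT6 motif.
Ccl22: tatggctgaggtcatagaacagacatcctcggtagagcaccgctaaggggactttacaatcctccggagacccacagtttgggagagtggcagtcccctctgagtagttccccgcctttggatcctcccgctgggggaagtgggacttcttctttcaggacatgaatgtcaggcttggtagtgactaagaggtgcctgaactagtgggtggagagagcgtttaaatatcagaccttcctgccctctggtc
Ccl17: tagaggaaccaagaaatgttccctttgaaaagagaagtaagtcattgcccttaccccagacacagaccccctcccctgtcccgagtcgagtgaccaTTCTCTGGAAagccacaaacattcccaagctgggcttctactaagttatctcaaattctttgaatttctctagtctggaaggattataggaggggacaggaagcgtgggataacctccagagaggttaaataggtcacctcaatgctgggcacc

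Motifs were searched on both strands. The Ccl17 window held 1 match to TTCNNNNGAA, the spacing that STAT6 prefers, from 154 to 145 bases before the start. The Ccl22 window held none, and neither window matched the NF-kappaB consensus or the IRF motif GAAANNGAAA. Of 32851 promoter windows of the same length, 5.85% held TTCNNNNGAA, 7.25% held the NF-kappaB consensus and 2.98% held GAAANNGAAA. The longest runs of letters that both windows share are 7 bases long. Among them are AGGGGAC, which 2.39% of all windows hold, and TTAAATA, whose share of windows was not counted. A match describes letters in these windows and says nothing of binding.

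Ccl22 (ENSMUSG00000031779) was at 12.79, 7.96 and 10.96 TPM in knockdown tumors 1, 2 and 3, against 22.22, 23.9 and 25.58 TPM in control tumors 1, 2 and 3. Every knockdown tumor was below every control tumor, and the knockdown mean was 0.442 of the control mean. The log2 change on the log2(TPM + 1) scale was -1.13 (SE 0.159). In culture Ccl22 was listed at 0 in 5 of 6 libraries and at 0.03 TPM in control library 3.

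Ccl17 (ENSMUSG00000031780) was at 31.76, 26.06 and 41.25 TPM in knockdown tumors, against 38.52, 77.51 and 55.86 TPM in control tumors. The groups overlapped, because knockdown tumor 3 lay above control tumor 1. The knockdown mean of 33.02 ± 7.67 TPM was 0.576 of the control mean of 57.3 ± 19.5 TPM (SD, n = 3 each), with a log2 change of -0.75 (SE 0.291). In culture it ranged from 0 to 0.19 TPM in knockdown libraries and from 0 to 0.73 TPM in control libraries. Cx3cl1, named after its values were seen, was at 53.78, 46.17 and 41.35 TPM in knockdown tumors, against 33.92, 49.81 and 50.25 TPM in control tumors, so the groups overlapped for the gene between the chemokine pair.

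Each library's own leukocyte content was then used as a yardstick, since a ratio of 2 genes within a library does not change with the scaling of that library. Ccl22 per Ptprc was 0.459, 0.335 and 0.342 TPM per TPM in knockdown tumors, against 1.29, 1.24 and 1.24 in control tumors. The control ratios were close together, at 1.26 ± 0.0281, and the knockdown mean was 0.379 ± 0.0696 (SD, n = 3 each). Ccl17 per Ptprc was 1.14, 1.10 and 1.29 in knockdown tumors, against 2.23, 4.01 and 2.71 in control tumors. So the groups that overlapped in the level of Ccl17 were apart per Ptprc, a gene that was itself higher in every knockdown tumor. A gene with a smaller rise, or none, thus tends to come out lower per Ptprc. How many of all genes would be apart per Ptprc, or per the other yardsticks used below, was not counted. Nothing particular to these genes is therefore read from such ratios.

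Markers of dendritic cells were the next yardstick, and against them the knockdown means of the Ccl22 ratio were 0.514 (Ccr7) and 0.393 (Itgax) of the control means, beside 0.302 for Ptprc. Ccl22 per Ccr7, the homing receptor of mature dendritic cells, was 1.55, 1.90 and 1.66 in knockdown tumors, against 3.44, 3.55 and 2.96 in control tumors, with no overlap. Ccl17 per Ccr7 was 3.85, 6.23 and 6.23 in knockdown tumors, against 5.96, 11.5 and 6.47 in control tumors, with overlap. Per the sum of 14 genes of mature migratory dendritic cells, Ccl17 was 0.103 to 0.146 in knockdown tumors and 0.151 to 0.266 in control tumors. Cultured cells express some of these 14 genes. Per the sum of 12 genes of conventional dendritic cells, it was 0.114 to 0.146 in knockdown tumors and 0.204 to 0.249 in control tumors. Neither ratio to a sum overlapped. Ccl22 per Itgax, which encodes CD11c, was 0.554, 0.370 and 0.360 in knockdown tumors, against 1.45, 0.779 and 1.03 in control tumors. Ccl17 per Itgax was 1.38, 1.21 and 1.36 in knockdown tumors, against 2.52, 2.53 and 2.26 in control tumors. Neither ratio to Itgax overlapped between groups. Ccl17 per Ccl22 was 2.48, 3.27 and 3.76 in knockdown tumors, against 1.73, 3.24 and 2.18 in control tumors, so the balance of the ligands overlapped. Ccl22 per Foxp3, the ligand set against the gene of the cells it can attract, was 7.31, 6.98 and 7.36 in knockdown tumors, against 19.2, 21.3 and 14.1 in control tumors. The knockdown ratios lay close together (SD 0.203) and all below the control ratios.

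**Figure D2:**
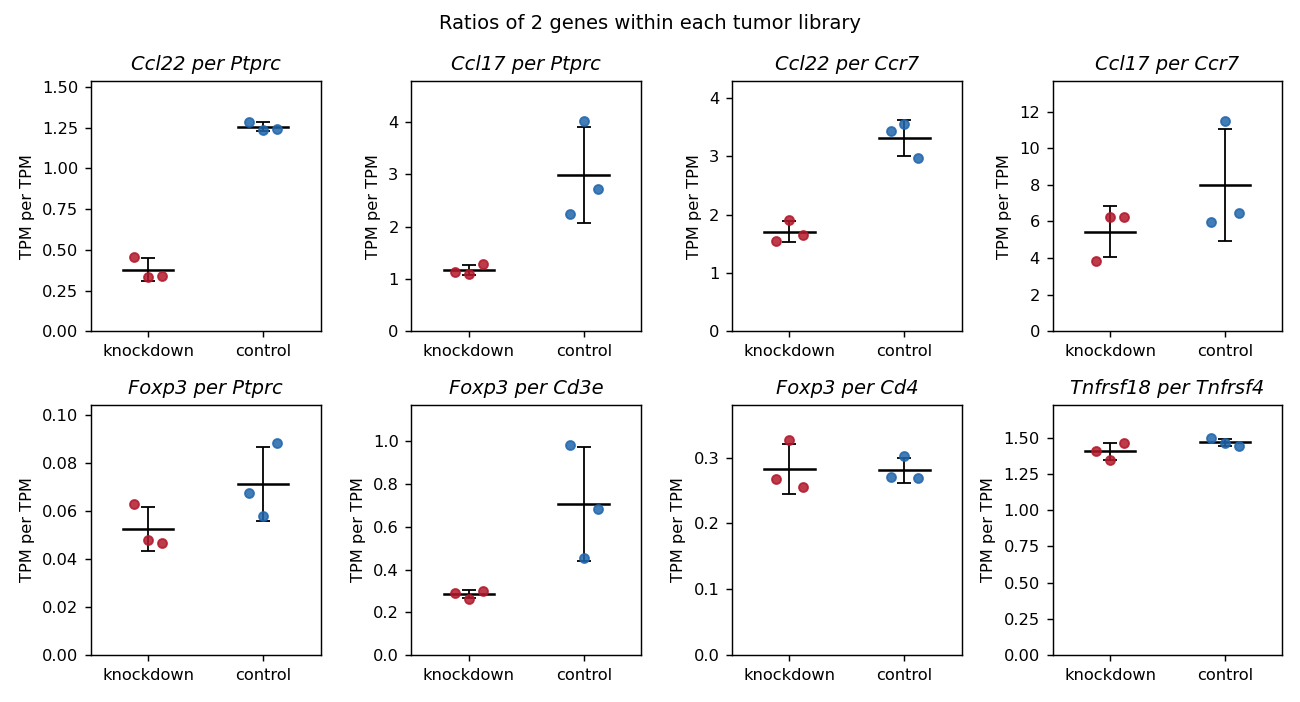
Ratios of 2 genes within each tumor library (vertical axes, TPM per TPM, from 0), in the 3 knockdown and 3 control tumors. Points are libraries, the horizontal line is the mean and bars are 1 SD. Ccl22 per Ptprc was 0.335 to 0.459 in knockdown tumors and 1.24 to 1.29 in control tumors, while Foxp3 per Cd4 was 0.255 to 0.327 in knockdown tumors and 0.269 to 0.303 in control tumors.

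Ccr4 (ENSMUSG00000047898), the receptor of both chemokines, was at 0.07, 0.03 and 0.14 TPM in knockdown tumors, against 0.16, 0.07 and 0.16 TPM in control tumors. In culture, where the T cell genes Cd3e and Cd4 were listed at 0 in all 6 libraries, it was at 0.05, 0.12 and 0.15 TPM in knockdown libraries, against 0.10, 0.16 and 0.04 TPM in control libraries. Tumor libraries spanned 0.03 to 0.16 TPM and culture libraries 0.04 to 0.16 TPM, so the receptor stood no higher in tumors than in the cell line. Tumor and culture tables were normalized separately, and levels set across them are descriptive. The receptor side of the axis was therefore not measurable above this level, and no fold is given for it.

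Foxp3 (ENSMUSG00000039521) was at 1.75, 1.14 and 1.49 TPM in knockdown tumors, against 1.16, 1.12 and 1.82 TPM in control tumors. The highest and the lowest value were both in control tumors. The log2 change was 0.06 (SE 0.186), and it ran from -0.02 to 0.19 over the 6 fits that left out 1 library. Without knockdown tumors 1 and 3 it was -0.13. Culture libraries had 0.04 to 0.21 TPM, so a low level was listed there with Cd3e at 0.

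Il2ra was at 2.29, 2.61 and 2.74 TPM in knockdown tumors, against 1.74, 0.99 and 1.49 TPM in control tumors. The groups did not overlap, the knockdown mean was 1.81 times the control mean and the log2 change was 0.57 (SE 0.164). Ctla4 was at 4.93, 5.57 and 6.03 TPM in knockdown tumors, against 4.49, 3.47 and 4.77 TPM in control tumors. These groups did not overlap either, with a knockdown mean of 1.30 times the control mean and a log2 change of 0.32 (SE 0.137). Both genes were listed at 0 in all 6 culture libraries. Effector T cells also carry Il2ra and Ctla4 once activated, so neither gene marks regulatory T cells alone.

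Tnfrsf4 was at 8.23, 5.68 and 7.64 TPM in knockdown tumors, against 3.52, 4.85 and 6.74 TPM in control tumors, with a change of 0.46 (log2, SE 0.217) and overlapping groups. Without control tumor 1 the change of Tnfrsf4 was 0.27, and without knockdown tumors 1 and 3 it was 0.18. Tnfrsf18 was at 11.62, 7.66 and 11.19 TPM in knockdown tumors, against 5.27, 7.12 and 9.75 TPM in control tumors, with a change of 0.43 (log2, SE 0.230) and overlapping groups. The change of Tnfrsf18 was 0.24 without control tumor 1 and 0.0823 without knockdown tumors 1 and 3. The receptors followed each other closely over the 6 tumors, with Tnfrsf18 per Tnfrsf4 at 1.41, 1.35 and 1.46 in knockdown tumors, against 1.497, 1.47 and 1.45 in control tumors. Low levels were also listed in culture, at 0.43 to 1.53 TPM for Tnfrsf4 and 0.16 to 0.93 TPM for Tnfrsf18.

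Ccr8 was at 1.65, 0.58 and 1.20 TPM in knockdown tumors, against 0.84, 0.28 and 1.02 TPM in control tumors, with a log2 change of 0.32 (SE 0.272) and overlapping groups. The change was 0.12 without control tumor 2 and 0.52 without knockdown tumor 2. Tumor 2 was the lowest of its group in each case, and the labels do not say whether the numbers of the 2 groups pair. It was listed at 0 in all culture libraries. Ikzf2, which encodes the transcription factor Helios, was at 0.52, 0.46 and 0.80 TPM in knockdown tumors, against 0.64, 0.45 and 0.81 TPM in control tumors. These ranges were nearly the same, and the culture libraries did not exceed 0.05 TPM.

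Across the 10 genes, 8 passed the filter, a mean that reaches 1 TPM in either tumor group, and Ikzf2 and Ccr4 did not. As a description, the fit by limma over all 14915 genes that passed called 1 of the 8, Ccl22, at a Benjamini-Hochberg adjusted p under 0.05. Of all genes tested 1.51% were called, 1.07% as higher and 0.436% as lower in knockdown tumors. Groups did not overlap for 2 of the 10 genes upward and 1 downward, while 24.7% of all genes tested had no overlap, 9.81% upward and 14.9% downward. The call of Ccl22 was lost without knockdown tumor 3, control tumor 2 or control tumor 3, with log2 changes from -1.26 to -0.95 over the 6 omissions. Nothing is read from these counts, because the genes were chosen with this comparison in view. Of the 7 regulatory T cell genes, 6 had a higher mean in knockdown tumors, Ikzf2 being the exception.

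By level the genes stood in the same order in tumors of both kinds: Ccl17, Ccl22, Tnfrsf18, Tnfrsf4, Ctla4, Il2ra, Foxp3, Ccr8, Ikzf2 and Ccr4. TPM is scaled by length, which allows levels of different genes to be set side by side. Ccl22 and Tnfrsf18 overlapped in knockdown tumors, at 7.96 to 12.79 and 7.66 to 11.62 TPM, but not in control tumors, at 22.22 to 25.58 and 5.27 to 9.75 TPM. In tumors of both kinds Tnfrsf18 overlapped with Tnfrsf4, Tnfrsf4 with Ctla4 and Ccr8 with Ikzf2. Ccl17 and Ccl22, Ctla4 and Il2ra, and Ikzf2 and Ccr4 were apart in tumors of both kinds. Il2ra and Foxp3 were apart in knockdown tumors, at 2.29 to 2.74 and 1.14 to 1.75 TPM, and overlapped in control tumors. Foxp3 and Ccr8 overlapped in knockdown tumors, at 1.14 to 1.75 and 0.58 to 1.65 TPM, and were apart in control tumors, at 1.12 to 1.82 and 0.28 to 1.02 TPM.

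**Figure D3:**
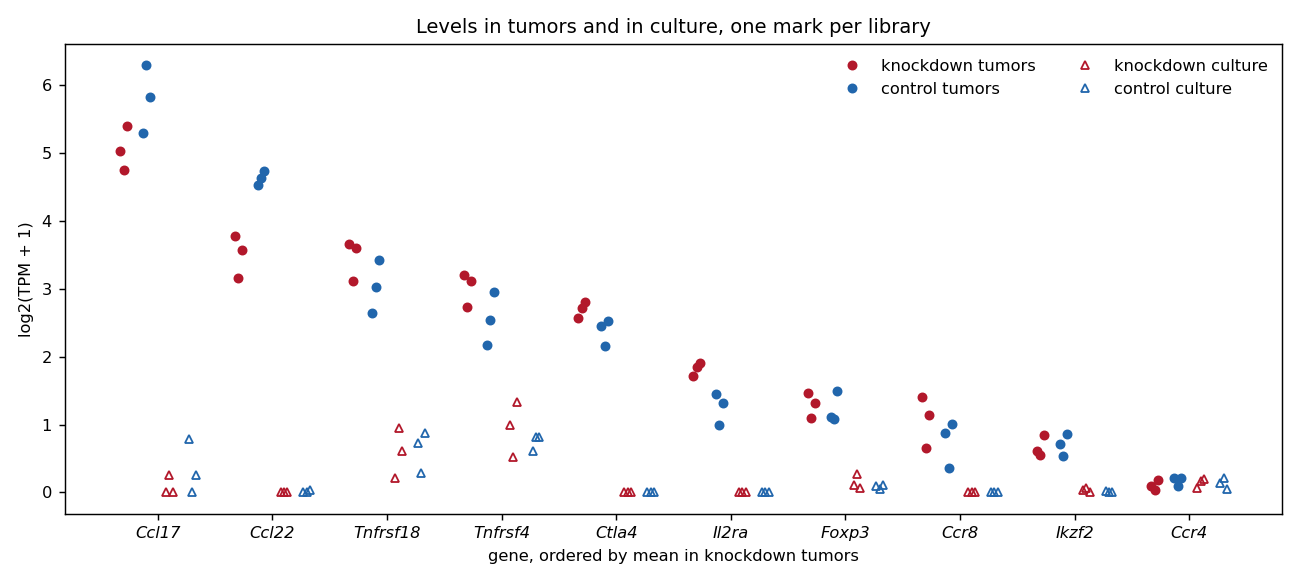
Level of each gene as log2(TPM + 1) (vertical axis) in knockdown tumors, control tumors, knockdown culture and control culture, with 1 mark per library and genes ordered by their mean in knockdown tumors. For 9 of the 10 genes every tumor library lies above every culture library, and Ccr4 is the exception, at 0.03 to 0.16 TPM in tumors and 0.04 to 0.16 TPM in culture.

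Culture served as the background without host cells. All 10 genes were below the filter there, so no knockdown difference could be tested, while 0.0296% of the 13492 genes tested in culture were called. The 7 regulatory T cell genes summed to 1.26, 1.62 and 2.10 TPM in knockdown cultures, against 1.27, 1.03 and 1.68 TPM in control cultures. In tumors the same sum was 31.0, 23.7 and 31.1 TPM in knockdown tumors, against 17.7, 18.3 and 26.4 TPM in control tumors. The groups overlapped in the tumor sum, since knockdown tumor 2 lay below control tumor 3.

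General T cell genes give the setting for these levels. Of 17 T cell genes, all tested, limma called 0, every change was positive and the median was 0.64 (log2), beside -0.05 over all genes tested. An unadjusted limma p under 0.05 was found for 11 of them, beside 18.7% of all genes tested in tumors. That share is also the background for the same count of each list below. They summed to 79.8 to 109 TPM in knockdown tumors and 33.1 to 73.7 TPM in control tumors. Cd3e, a chain of the T cell receptor complex, was at 6.03, 4.33 and 4.96 TPM in knockdown tumors, against 1.18, 2.47 and 2.66 TPM in control tumors (log2 change 1.00, SE 0.223, limma adjusted p = 0.0853). Cd3d, another chain of that complex, differed by 0.85 and the T cell kinase gene Lck by 0.81 (log2, adjusted p = 0.139 and 0.145 by limma). Cd8a, the coreceptor of cytotoxic T cells, was at 5.12, 4.62 and 5.38 TPM in knockdown tumors, against 0.24, 2.75 and 2.29 TPM in control tumors (limma adjusted p = 0.193). Cd4, the coreceptor that regulatory T cells carry, was at 6.53, 3.49 and 5.85 TPM in knockdown tumors, against 4.29, 3.70 and 6.76 TPM in control tumors (log2 change 0.09, SE 0.257, limma adjusted p = 0.870).

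Foxp3 relative to these genes depended on which one it was set against. Foxp3 per Cd3e was 0.290, 0.263 and 0.300 in knockdown tumors, against 0.983, 0.453 and 0.684 in control tumors, with no overlap. Foxp3 per Cd4 was 0.268, 0.327 and 0.255 in knockdown tumors, against 0.270, 0.303 and 0.269 in control tumors, with means of 0.283 ± 0.0383 and 0.281 ± 0.0190 (SD, n = 3 each). Foxp3 per Ptprc was 0.0628, 0.0480 and 0.0465 in knockdown tumors, against 0.0673, 0.0580 and 0.0884 in control tumors, with overlap. Macrophages and dendritic cells can carry Cd4 too, so Foxp3 per Cd4 is not a share of T cells. The 7 regulatory T cell genes summed, per summed T cell genes, gave 0.285, 0.297 and 0.322 in knockdown tumors, against 0.534, 0.344 and 0.358 in control tumors, which came close but did not overlap. Control tumor 1, with the lowest T cell sum, had the highest of these ratios. Cd8a per Foxp3 was 2.93, 4.05 and 3.61 in knockdown tumors, against 0.207, 2.45 and 1.26 in control tumors. Il2ra per Foxp3 was 1.31, 2.29 and 1.84 in knockdown tumors, against 1.5, 0.884 and 0.819 in control tumors, so those groups overlapped. Tnfrsf4 per Foxp3 was 4.70, 4.98 and 5.13 in knockdown tumors, against 3.03, 4.33 and 3.70 in control tumors, and Tnfrsf18 per Foxp3 was 6.64 to 7.51 in knockdown tumors and 4.54 to 6.36 in control tumors, both without overlap. Per Cd3e, in contrast, Ctla4, Tnfrsf4, Tnfrsf18 and Ikzf2 were lower in every knockdown tumor than in any control tumor, while Il2ra and Ccr8 overlapped. Tnfrsf4 per Cd3e, as an example, was 1.31 to 1.54 in knockdown tumors and 1.96 to 2.98 in control tumors. Cd3e was itself higher in every knockdown tumor, with a mean 2.43 times the control mean. A gene with a smaller rise, or none, thus tends to come out lower per Cd3e, Foxp3 included. How many of all genes would do so was not counted, so nothing particular to these genes is read from the ratios per Cd3e.

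Cytotoxic lymphocytes can also carry Il2ra, Ctla4, Tnfrsf4 and Tnfrsf18. Of 10 markers of these cells, limma called 3, all upward, namely the granule genes Gzma, Prf1 and Gzmb, and 7 did not pass. Over all genes tested 1.07% were called as higher. The groups overlapped for 2 of the 7, Eomes and Ncr1. Of the 10 markers 8 were higher without overlap, beside 9.81% of all genes tested. Eomes is expressed by the cell line as well, at 10.44 to 13.64 TPM in knockdown cultures and 11.18 to 12.87 TPM in control cultures. Its tumor levels were lower, at 3.61 to 4.45 TPM in knockdown tumors and 3.49 to 4.1 TPM in control tumors. The 10 markers summed to 136 to 189.7 TPM in knockdown tumors and 53.29 to 66.52 TPM in control tumors. Their part in the levels of the 4 receptors was not tested. Markers of group 2 innate lymphoid cells, another Il2ra-bearing type, summed to 269.9 to 307.6 TPM in knockdown tumors and 322.3 to 358.3 TPM in control tumors, and 0 of 4 tested were called by limma. That sum was mostly Areg and Hilpda, which the cell line expresses as well, while Il5 did not exceed 0.10 TPM in any tumor.

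Of 19 further genes linked to regulatory T cells, 16 were tested and limma called 0, with 1 at an unadjusted p under 0.05 and a median log2 change of 0.07. The smallest p were those of Batf (log2 change 0.44), Entpd1 (0.34) and Il1rl1 (0.41), with limma adjusted p of 0.266, 0.279 and 0.280. Batf is a transcription factor of activated T cells, Entpd1 encodes the ectonucleotidase CD39 and Il1rl1 the interleukin-33 receptor ST2. Il10, the gene of an inhibitory cytokine, was at 4.6, 5.59 and 5.1 TPM in knockdown tumors, against 5.0, 4.7 and 5.33 TPM in control tumors. Izumo1r and Ikzf4, further regulatory T cell genes, averaged 0.843 and 0.363 TPM in knockdown tumors and 0.663 and 0.370 TPM in control tumors and fell short of the filter.

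Tigit, an inhibitory receptor that many regulatory T cells carry, had tumor levels below its culture levels. It was at 18.08, 14.55 and 13.41 TPM in knockdown tumors, against 15.12, 15.93 and 12.73 TPM in control tumors. In culture it was at 50.72, 36.56 and 48.5 TPM in knockdown cells, against 50.61, 50.26 and 37.91 TPM in control cells. Tnfrsf9 and Batf were listed in cultured cells as well, at 7.66 to 12.43 and 7.40 to 17.68 TPM over the 6 libraries. These values were looked up after the data were seen, and all 3 genes are therefore listed in the cell line too.

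Ligands and partner chains of the receptors were described next. Of 10 such genes 7 were tested, limma called 0, 3 had an unadjusted p under 0.05 and the median log2 change was 0.25. That median ran from 0.0845 without knockdown tumor 3 to 0.55 without knockdown tumor 2. Il2rb, the interleukin-2 receptor beta chain that pairs with Il2ra, was at 12.34, 12.33 and 12.87 TPM in knockdown tumors, against 4.85, 6.50 and 8.27 TPM in control tumors (log2 change 0.87, SE 0.165, limma adjusted p = 0.0582). Ccl8, which in mice binds Ccr8, was at 340.9, 290.9 and 322.5 TPM in knockdown tumors, against 122.3, 127 and 235.9 TPM in control tumors (log2 change 1.04, SE 0.270, limma adjusted p = 0.142). Cd86, a ligand of Ctla4, averaged 11.5 ± 0.851 TPM in knockdown tumors and 7.75 ± 1.84 TPM in control tumors (limma adjusted p = 0.154). Groups did not overlap for these 3 genes of the 7 tested, beside 9.81% of all genes tested that were higher without overlap. Ccl1, the other Ccr8 ligand, averaged 1.28 ± 0.712 TPM in knockdown tumors and 0.863 ± 0.383 TPM in control tumors, with overlap. Il2 itself did not exceed 0.15 TPM in any tumor.

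Genes of dendritic cells, which are among the cells that make Ccl22 and Ccl17, did not move in 1 direction. Of 14 genes of mature migratory dendritic cells limma called 0, and 5 had an unadjusted p under 0.05. The median log2 change of the 14 was -0.12, with 6 positive and 8 negative changes. In culture, which has no host cells, 7 of the 14 passed the filter, so this median does not describe dendritic cells alone. The 14 summed to 115.9 to 130.7 TPM in knockdown cultures and 122.2 to 135.5 TPM in control cultures. Il15ra, the interleukin-15 receptor alpha chain, was at 21.31, 16.48 and 16.11 TPM in knockdown tumors, against 4.10, 7.20 and 9.16 TPM in control tumors (limma adjusted p = 0.0707). Fscn1, which encodes the actin bundler fascin of mature dendritic cells, was at 28.63, 21.11 and 24.32 TPM in knockdown tumors, against 37.44, 30.7 and 35.77 TPM in control tumors (log2 change -0.48, SE 0.127, limma adjusted p = 0.119). Fscn1 stayed at 0.43 TPM or less in culture, whereas Cacnb3, with a log2 change of -0.31 (limma adjusted p = 0.107), was at 13.09 to 17.56 TPM in cultured cells. Of 12 genes of conventional dendritic cells limma called 0, with 0 at an unadjusted p under 0.05 and a median of 0.09, which was -0.0311 without control tumor 1. Their smallest p were those of Xcr1, Clec9a and Irf8, with limma adjusted p from 0.390 to 0.457. Itgax averaged 25 ± 4.76 TPM in knockdown tumors and 23.6 ± 7.76 TPM in control tumors. Macrophages make both chemokines too. Of 10 monocyte and macrophage markers, 7 changes were positive and 3 negative, with a median of 0.21. Limma called 1 of them, Ly6c2, as higher (log2 change 1.85, adjusted p = 0.0139), beside 1.07% of all genes tested. The 10 markers summed to 1554 to 2027 TPM in knockdown tumors and 1445 to 2037 TPM in control tumors.

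Genes of the type 2 cytokine and STAT6 pathway, which induces Ccl17 and Ccl22 in myeloid cells, were mixed. Of 15 genes 12 were tested and 1 was called by limma, with a median log2 change of 0.08 and 4 at an unadjusted p under 0.05. The median was -0.0494 without control tumor 2. The called gene was Chil3, a chitinase-like gene of alternatively activated macrophages, which rose to 7.72, 7.36 and 6.90 TPM in knockdown tumors, against 3.89, 3.73 and 4.28 TPM in control tumors (log2 change 0.75, SE 0.102, limma adjusted p = 0.0214). That call was lost without knockdown tumor 1 or 2 or control tumor 2 or 3, with limma adjusted p of 0.0508 to 0.106 in these 4 fits and of 0.00215 to 0.233 over all alternatives. Csf2, the gene of the growth factor GM-CSF, was at 25.29, 24.61 and 27.33 TPM in knockdown tumors, against 31.68, 37.15 and 42.58 TPM in control tumors (log2 change -0.50, SE 0.113, limma adjusted p = 0.0867). In culture Csf2 was at 30.08, 31.11 and 33.01 TPM in knockdown cells, against 38.59, 36.98 and 38.25 TPM in control cells. No knockdown value reached a control value in either tissue, and the difference in culture did not pass limma's threshold (log2 change -0.27, adjusted p = 1.00). Ccl11, the gene of eotaxin, had a change of -1.18 (log2, SE 0.337, adjusted p = 0.154 by limma) and Il13ra1, an interleukin-13 receptor chain, one of 0.33 (adjusted p = 0.192). The cytokine genes Il4, Il13 and Tslp did not exceed 0.87, 0.29 and 0.86 TPM in any tumor.

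Of 8 genes of other chemokine pairs linked to regulatory T cell entry 4 were tested and limma called 0, with 2 at an unadjusted p under 0.05 and a median of 0.32, which was 0.0101 with no filter. Ccl5 averaged 44.0 ± 4.78 TPM in knockdown tumors and 22.8 ± 7.37 TPM in control tumors (log2 change 0.95, limma adjusted p = 0.0899). Cxcr4 averaged 11.3 ± 2.98 TPM in knockdown tumors and 12.1 ± 1.30 TPM in control tumors (log2 change -0.11, limma adjusted p = 0.758). Of 4 genes that scavenge or cleave chemokines only Dpp4, a protease known to cleave Ccl22, was tested, at 0.29 on the log2 scale (adjusted p = 0.568), so limma called 0, also with 0 at an unadjusted p under 0.05. Over the 8 lists, 1 of 83 distinct genes tested was called, or 1.20%, near the 1.51% of all genes.

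**Figure D4:**
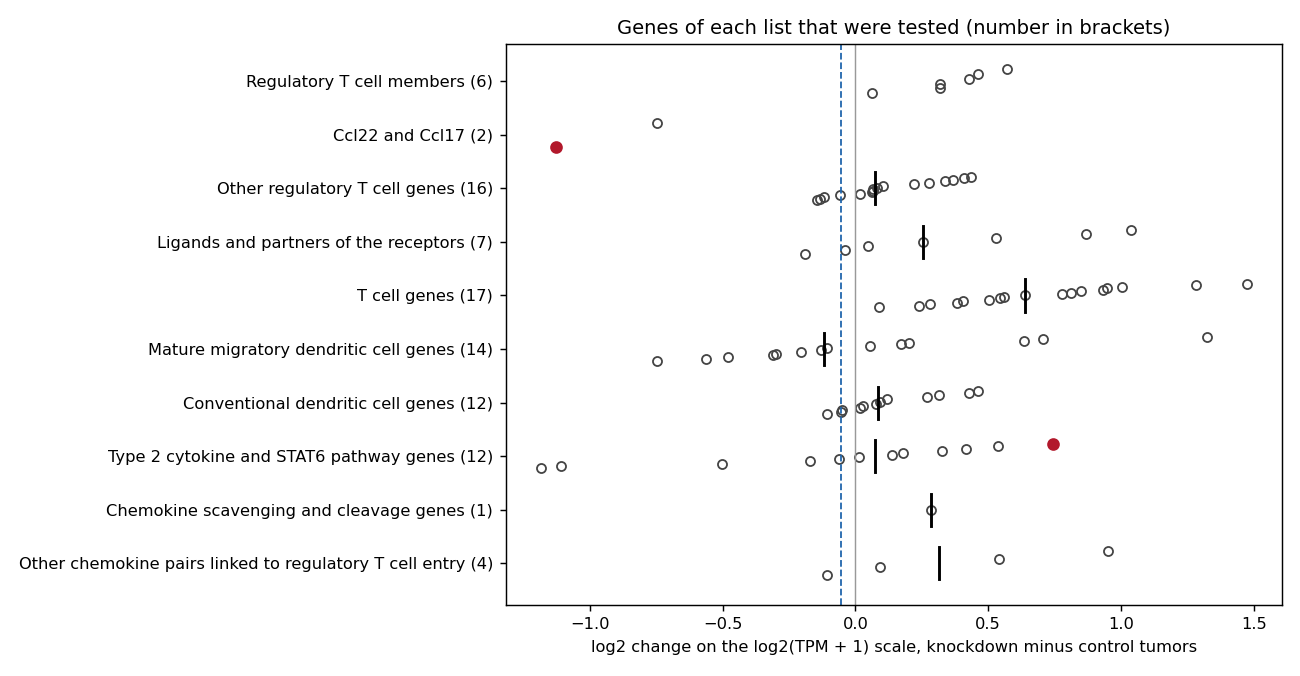
Log2 change on the log2(TPM + 1) scale, knockdown minus control tumors (horizontal axis), of each tested gene of the lists, 1 circle per gene, with the number tested in brackets. Red filled circles are genes called by limma, Ccl22 and Chil3, black bars are list medians and the dashed line is the median of all genes tested, -0.05.

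The genes whose pattern over the 6 tumors was most like that of Ccl22 were Nomo1, Ahsa1, Baiap2l1, Cct2 and Rasl11b, with Pearson r of log2(TPM + 1) from 0.993 to 0.998 among 11551 genes ranked. Ccl17 had an r of 0.795 with Ccl22 and stood at rank 1709. For Foxp3 the nearest were Fcgrt, Atp13a2, Rmdn1, Cd4 and Fut10, with r from 0.964 to 0.994 among 11552 genes. Cd4 was the fourth, at 0.970, while Tnfrsf18, Tnfrsf4 and Ctla4 had r of 0.803, 0.775 and 0.322 with Foxp3, and Ccl22 had 0.0805. With 6 libraries that share their 2 groups, such values describe these libraries and nothing more.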

How the data were processed

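Total RNA of 12 samples was sequenced. Sample titles gave the groups and numbers. The authors deposited 1 table per sample in TPM, to 2 decimals, with gene identifier, name and length, per the file headers; the values sum to 1 total in all libraries. Per the submitters' processing notes, the tools were fastp, HISAT and RSEM, on GRCm39; roles, settings and strand use are not given in the sources used. Because TPM carries no depth, counting intervals cannot be had.

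Each tissue's 6 libraries were fitted with limma 3.58.1 in R 4.3.3 (log2(TPM + 1), robust moderation with a trend, two-sided), using genes whose mean reached 1 TPM in either group. Benjamini-Hochberg adjustment ran over every gene fitted, 14915 in tumors and 13492 in culture, and genes under 0.05 were called. Fold changes on this scale understate changes of low genes. The difference between tissues was fitted on all 12 libraries. The procedure was tested on simulated data. Alternatives were another pseudocount, other filters, a replicate block, other scalings, 1 joint fit and omissions of libraries.

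The 10 genes and the lists were chosen with earlier results of these data known, and the named list genes are, per list, up to 4 called and up to 3 others by smallest p. Genes said to be looked up after the data were seen fall outside that rule, as do Il10, Izumo1r, Ikzf4, Ccl1, Il2, Il4, Il13, Tslp and Il5. Some items are not reported here. Promoters come from RefSeq on GRCm38.p6. Plots were made in Python 3.11.15 (matplotlib 3.10.9).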

Additional observations from a re-analysis of the deposited data

Results flagged for a closer look

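For St3gal3, the hairpin's target, the knockdown effect differed between tumors and culture in limma's test of the difference itself over 12 libraries. The tumor change minus the culture change was 1.19 on the log2 scale (SE 0.192, limma adjusted p = 0.0164). The change was -1.13 in tumors and -2.32 in culture, and the level was lower in 3 of 3 knockdown libraries in each tissue. Tumor libraries also hold RNA of host cells, and tumor and culture tables were normalized separately. Whether the effect differed within HM1 cells was therefore not tested.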

How the results depend on the processing

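Under every setting, log2 changes stayed negative for Ccl22 (-1.47 to -0.95) and Ccl17 (-1.05 to -0.50). They stayed positive for Il2ra (0.44 to 0.84), Ctla4 (0.21 to 0.39), Tnfrsf4 (0.18 to 0.66) and Tnfrsf18 (0.0823 to 0.63). Ccr8 was positive (0.12 to 0.65) in the settings that gave a value. It reached the filter through its knockdown mean alone, 1.14 TPM against 0.713 TPM in control tumors. Without knockdown tumor 1, and without knockdown tumors 1 and 3, Ccr8 fell below the filter. Its sign in those settings was therefore not seen. Genes called in tumors numbered 225, against 82 with no filter, 72 without knockdown tumors 1 and 3, 599 with all 4 groups in one fit and 38 to 229 when 1 library was left out. Of the 10 genes described, 1 was called, against 0 with no filter and 0 to 1 in those omissions. List genes called numbered 1, against 0 with no filter, 2 with the stricter filter, 3 with median-of-ratios scaling, 2 with quantile normalization, 0 without knockdown tumors 1 and 3, 9 in the joint fit and 0 to 3 in the omissions. In culture 4 genes were called, against 11 with a pseudocount of 0.1, 8 with the stricter filter, 8 in the joint fit and 7 to 15 in the omissions. Without knockdown tumors 1 and 3 the log2 difference of Ccl22 per Ccr7 was -0.80 in place of -0.96 and that of Foxp3 per Cd4 was 0.22 in place of 0.01.

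Some uncalled log2 changes turned their sign. Over the omissions of 1 library Cd4 ran from -0.0612 to 0.314, Itgax from -0.15 to 0.329 and Cxcr4 from -0.296 to 0.0198. Without knockdown tumors 1 and 3 Foxp3 was at -0.13, Cd4 at -0.36, Itgax at -0.074 and Dpp4 at -0.0921. List medians moved as well when 1 library was left out, from 0.0145 to 0.218 for other regulatory T cell genes and from 0.119 to 0.613 for other chemokine pairs. The cause was not tested. With the replicate number as a block, 2 genes were called in tumors, 0 of the 10 described and 0 list genes, and 4 genes in culture. The labels do not say whether the numbers pair the samples. Same-numbered libraries correlated at -0.14 to 0.05 in tumors and -0.16 to -0.06 in culture, and not every library correlated best with its own number. Pairing was thus not evident, but with 3 libraries per group these values cannot exclude it. Depth is unknown, which limits what can be said of genes near 0 such as Ccr4.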
